A study of Mus musculus with 4 samples.

Results

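The 10 genes followed here belong to the hormone-producing cells of the gut and were measured in single cells of the injured mouse intestine. They are *Chga*, *Chgb*, *Cck*, *Gcg*, *Sct*, *Gip*, *Sst*, *Nts*, *Pyy* and *Tph1*. They were matched by symbol among the 32286 features of the deposited count files, and all 10 were present. *Chga* had been selected on its UMI counts in enterocytes, which were higher in the mutant mice, so its values in enterocytes are given as a description without a test, as are those of the other members there. No member's gene body overlapped another annotated gene on either strand.

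Each of the 4 libraries was made from the distal jejunum of 1 mouse, collected 18.5 h after small intestinal ischemia and reperfusion (I/R), an injury in which the blood supply of the gut is blocked and then restored. The 2 control mice carried *Foxc1* fl/fl;*Foxc2* fl/fl, and the 2 EC-Foxc-DKO mice carried *Cdh5-CreERT2* with *Foxc1* fl/fl;*Foxc2* fl/fl, so all 4 mice held the floxed alleles. Cdh5-CreERT2 is a recombinase that tamoxifen switches on in the endothelium of blood and lymphatic vessels, and it is not directed at the epithelium in which the hormone genes are expressed. The study's methods describe adult male mice dosed with tamoxifen by mouth. No library from a sham-operated mouse was among the 4, so the levels below all belong to injured tissue.

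Enteroendocrine cells (EECs) are scattered secretory cells of the intestinal epithelium that sense the gut content and release peptides or serotonin. Chromogranins A and B, the products of *Chga* and *Chgb*, are acidic proteins packed in the same granules. *Tph1* encodes the enzyme that limits serotonin synthesis and marks enterochromaffin cells. The peptide genes are *Sct* (secretin), *Gip* (glucose-dependent insulinotropic polypeptide), *Cck* (cholecystokinin), *Nts* (neurotensin), *Pyy* (peptide YY), *Gcg* (proglucagon, the source of the glucagon-like peptides) and *Sst* (somatostatin). A single EEC can hold several of these peptides, and enterocytes, the absorptive cells beside it, are not known as a source of them.

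The members do not lie together in the genome. In the GENCODE annotation of GRCm38, *Chga* spans chr12:102554969-102565028 on the plus strand, *Sct* chr7:141278330-141279133 on the minus strand, *Cck* chr9:121489824-121495694 on the minus strand and *Gip* chr11:96024545-96030831 on the plus strand. The 250 bases before the RefSeq start of these 4 genes are shown because they cover a chromogranin, the hormone found in every EEC and a pair of hormones found in some of them. The runs are read 5′ to 3′ from GRCm38.p6, and capitals mark the E-boxes CAGATG and CAGCTG, which basic helix-loop-helix factors such as Neurod1 can bind, and the TATA motif TATAAA.
*Chga*, chr12:102554691-102554940, plus strand: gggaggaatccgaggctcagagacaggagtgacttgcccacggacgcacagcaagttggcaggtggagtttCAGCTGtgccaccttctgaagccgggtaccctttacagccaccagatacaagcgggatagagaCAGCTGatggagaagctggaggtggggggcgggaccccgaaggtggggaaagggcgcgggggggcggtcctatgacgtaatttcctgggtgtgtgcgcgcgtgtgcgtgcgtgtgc
*Sct*, chr7:141279134-141279383, minus strand: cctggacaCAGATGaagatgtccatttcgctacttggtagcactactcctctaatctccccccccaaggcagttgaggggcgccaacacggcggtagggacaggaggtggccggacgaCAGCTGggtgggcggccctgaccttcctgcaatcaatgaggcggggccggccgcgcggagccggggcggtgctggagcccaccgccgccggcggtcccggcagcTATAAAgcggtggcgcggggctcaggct
*Cck*, chr9:121495695-121495944, minus strand: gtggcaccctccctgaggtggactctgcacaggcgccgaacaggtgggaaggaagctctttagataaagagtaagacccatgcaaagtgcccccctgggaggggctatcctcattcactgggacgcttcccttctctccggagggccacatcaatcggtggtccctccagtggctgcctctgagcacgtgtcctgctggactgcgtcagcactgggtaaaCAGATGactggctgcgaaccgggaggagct
*Gip*, chr11:96024295-96024544, plus strand: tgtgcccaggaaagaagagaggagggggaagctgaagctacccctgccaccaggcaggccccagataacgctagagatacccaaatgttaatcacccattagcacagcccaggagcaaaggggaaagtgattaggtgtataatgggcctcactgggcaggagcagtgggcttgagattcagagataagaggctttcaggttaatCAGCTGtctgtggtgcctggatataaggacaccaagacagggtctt

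The first base of a CAGCTG lay 179 and 116 bases before the start in *Chga*, 132 bases before it in *Sct* and 46 bases before it in *Gip*. A CAGATG began 242 bases before the start in *Sct* and 30 bases before it in *Cck*, and the TATAAA of *Sct* began 28 bases before the start. Over windows from 250 bases before to 50 bases after the start, and counting both strands, CAGCTG was present in 5 of the 10 members (*Chga*, *Chgb*, *Gip*, *Nts* and *Sct*) and in 16.3% of the 32851 RefSeq promoters. CAGATG or its reverse CATCTG was present in 3 members (*Cck*, *Gcg* and *Sct*) and in 17.2% of promoters, and TATAAA or TTTATA in 3 members (*Chga*, *Gcg* and *Sct*) and in 13.6%. The TATAAA of *Chga* began 6 bases after the RefSeq start, outside the bases printed, which end at 102554940. The GENCODE span of *Chga* begins later, at 102554969, so the distances given for *Chga* depend on the start used. The cAMP response element TGACGTCA was present in *Chgb* and *Sst* and in 1.79% of promoters. These are matches of letters and say nothing of binding.

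The 4 libraries held 15557181 to 72046346 unique molecular identifiers (UMIs, 1 per captured RNA molecule) in 3623 to 7347 barcodes. After barcodes with over 10% mitochondrial UMIs were removed, 5615 of 22679 barcodes (24.8%) were left as cells, with 1446 and 348 in the libraries of the controls and 2742 and 1079 in those of the EC-Foxc-DKO mice. Control replicate 2 stood apart, since its median mitochondrial share was 54.0% against 14.98 to 25.8% in the other libraries. Of 51 barcodes that occurred in 2 libraries, 22 were among the kept cells, 0 of them EECs and 9 enterocytes. *Foxc1* gave 2 and 9 UMIs in the endothelial cells of the control mice and 1 and 0 in those of the EC-Foxc-DKO mice, *Foxc2* gave 0 in all 4, and the added Cre sequence gave 0 and 0 UMIs in the control and 3 and 2 in the EC-Foxc-DKO endothelial cells. Which part of each floxed gene these 3′ reads cover was not tested.

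To keep the members from defining the cells in which they were measured, the cells were clustered without them. The EEC cluster held 77 cells, 25 and 5 from the controls and 24 and 23 from the EC-Foxc-DKO mice. Here and throughout, a pair of values for a group gives replicate 1 first and replicate 2 after it, and 4 values run through the controls first. The same 77 cells came together when the members were kept. Another cluster, led by *Sprr2a3* and *Gml2*, corresponds by its markers to a cluster that the study also calls enteroendocrine. It held 284 cells, and all 10 genes of that marker list, which has none of the members, were found in it. This cluster, in which the 10 members together were at 60.8 and 0 CPM in controls and at 55.7 and 317 CPM in EC-Foxc-DKO mice, is called by its leading genes here and kept apart from the EECs. All 18 other EEC markers, among them *Neurod1*, *Pcsk1*, *Scgn*, *Fev* and *Insm1*, were detected in the EECs of each mouse, and their summed level was 20164 and 20725 counts per 1000000 UMIs (CPM) in controls and 20361 and 18420 CPM in the EC-Foxc-DKO mice. The genes that led the EEC cluster by fold over the other cells were *Pyy*, *Nts*, *Ghrl*, *Cck*, *Chgb*, *Gip*, *Sct*, *Neurod1*, *Tph1* and *Chga*, so 8 of the 10 members were among the leading 10 genes although none had been used.

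The 7 enterocyte check markers summed to 11571 and 1429 CPM in the EECs of the control mice and to 17087 and 7059 CPM in those of the EC-Foxc-DKO mice, against 69819 to 103663 CPM in enterocytes themselves. The 5 Paneth markers summed to 8.50 and 55.5 CPM in control EECs and to 19.5 and 221 CPM in EC-Foxc-DKO EECs. The part of these other transcripts in the results was not tested. EECs made up 1.73% (exact 95% interval 1.12 to 2.54) and 1.44% (0.468 to 3.32) of kept cells in the control mice and 0.875% (0.562 to 1.30) and 2.13% (1.36 to 3.18) in the EC-Foxc-DKO mice. Of epithelial cells alone, EECs were 2.71% and 6.49% in controls and 3.87% and 3.05% in EC-Foxc-DKO mice. The groups overlapped in both shares, and because 1 digestion per mouse sets such shares, they are given without a test. All intervals here cover counting error only.

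Hormone and chromogranin transcripts took up a large part of the RNA of these cells. The 10 members together received 23.1% and 13.7% of all EEC UMIs in the controls and 19.7% and 17.4% of them in the EC-Foxc-DKO mice. The EC-Foxc-DKO mice lay between the control mice. Of all member UMIs in kept cells, 94.4% were in the EECs, which were 77 of 5615 cells. That share was lowest for *Sst* (79.9%), *Chga* (82.7%) and *Tph1* (86.7%) and highest for *Pyy* (99.3%), *Nts* (98.7%) and *Cck* (98.5%). The pooled *Sst* share came from EC-Foxc-DKO replicate 1. By mouse it was 8.33% and 0% in controls and 98.7% and 0% in EC-Foxc-DKO mice. In EC-Foxc-DKO replicate 2, 0 of 400 *Sst* UMIs in kept cells were in EECs.

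Among the granule genes, *Chgb* was measured at 25441 and 39037 CPM in control EECs and at 22783 and 17198 CPM in EC-Foxc-DKO EECs. *Chga* was at 8916 and 18311 CPM in control EECs and at 8122 and 4351 CPM in EC-Foxc-DKO EECs. Both chromogranins were lower in each EC-Foxc-DKO mouse than in each control mouse, and the nearest *Chga* values were 8916 and 8122 CPM. In control replicate 2, a single EEC held 58.4% of the *Chga* UMIs and a single EEC held 52.1% of the *Chgb* UMIs. *Tph1* was at 1462 and 1609 CPM in control EECs and at 1727 and 1771 CPM in EC-Foxc-DKO EECs, the narrowest range of all members in fold.

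Among the peptide genes, *Sct* was at 43372 and 54643 CPM in controls and at 57419 and 39150 CPM in the EC-Foxc-DKO mice. *Gip* was at 32512 and 15260 CPM in controls and at 22584 and 55984 CPM in EC-Foxc-DKO mice. The groups overlapped for both of these hormones, which are made mainly in the upper small intestine. *Cck* was at 19606 and 4259 CPM in controls and at 14697 and 9746 CPM in EC-Foxc-DKO mice. *Pyy* was at 27124 and 3482 CPM in controls and at 8055 and 30362 CPM in EC-Foxc-DKO mice. For *Cck* and *Pyy*, control replicate 2 with its 5 EECs was the lowest, and each of its values came from 1 cell. Its *Gip* value came from 1 cell as well, and 1 cell held 93.5% of its *Sct* UMIs.

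*Nts* was at 71975 and 13.9 CPM in controls and at 54638 and 14543 CPM in the EC-Foxc-DKO mice. The low value is a single UMI in the 5 EECs of control replicate 2, so the 2 control mice held the highest and the lowest *Nts* value of the 4. *Gcg* was at 142 and 13.9 CPM in controls and at 207 and 649 CPM in EC-Foxc-DKO mice. *Sst* was at 2.83 and 0 CPM in controls and at 6965 and 0 CPM in EC-Foxc-DKO mice, where the counts of 0 allow up to 41.6 and 10.7 CPM. A single cell of EC-Foxc-DKO replicate 1 held 99.9% of the *Sst* UMIs there. The *Sst* level here thus depended on whether 1 *Sst* cell was among the EECs of a mouse. Over all barcodes, *Sst* gave 785 and 81 UMIs in controls and 2075 and 640 in EC-Foxc-DKO mice.

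**Figure D1:**
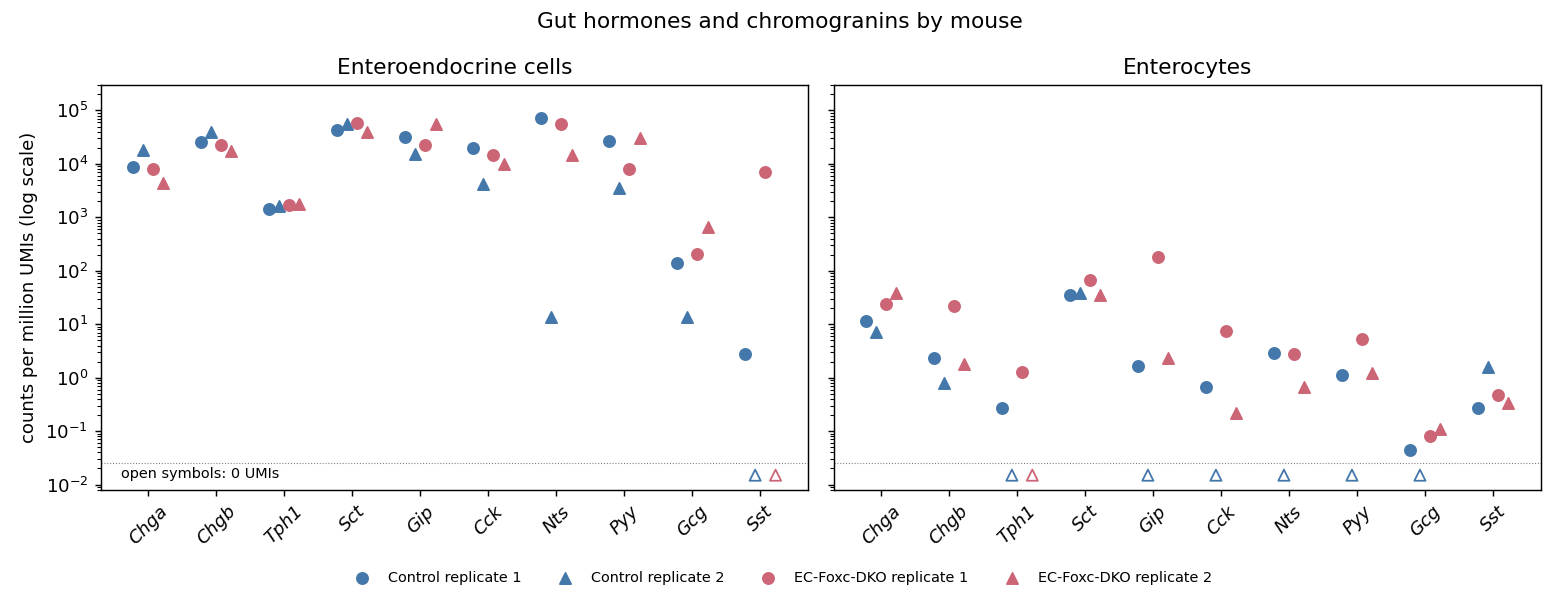
Level of each member in EECs (left) and enterocytes (right), in CPM on a log scale, with 1 symbol per mouse and open symbols for 0 UMIs. In EECs the 4 mice sit close together for *Tph1* (1462 to 1771) and *Sct* (39150 to 57419) and far apart for *Nts* and *Gcg*. In enterocytes *Sct* and *Chga* are the highest members, except that *Gip* lies above both in EC-Foxc-DKO replicate 1.

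The order of the mean levels over the 4 mice was *Sct* (48646 CPM), *Nts* (35292), *Gip* (31585), *Chgb* (26115), *Pyy* (17256), *Cck* (12077), *Chga* (9925), *Sst* (1742), *Tph1* (1642) and *Gcg* (253). Since 1 UMI was counted per captured 3′ end, these levels do not depend on transcript length. Neighbours in this order overlapped in their ranges over mice down to *Sst* and *Tph1*. *Tph1* and *Gcg* did not overlap, with 1462 CPM as the lowest *Tph1* value and 649 CPM as the highest of *Gcg*.

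Whether loss of *Foxc1* and *Foxc2* in the endothelium moved these genes in EECs was tested on UMI counts summed per mouse. No member passed the test. Over the 4322 genes tested 0 were called (0% of the genes, edgeR quasi-likelihood test, adjusted p under 0.05), with 81 genes at an unadjusted p under 0.05, and DESeq2 called 0 genes with 24 at an unadjusted p under 0.05. In a simulation with counts like these, 34% of genes with a true log2 change of 2 and 71% of those with a change of 3 were called. A smaller change would thus mostly have been missed. The simulation used a dispersion, the spread between mice beyond counting error, of 0.125. Its rates may not hold for members that varied widely between mice, such as *Nts* (13.9 to 71975 CPM).

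*Gcg* had the lowest p of the members, with a log2 fold change of 2.15 (SE 0.76; unadjusted p = 0.0174, adjusted p = 1.00). Its 50 UMIs in control replicate 1 and 53 in EC-Foxc-DKO replicate 1 came mostly from 1 cell each, which held 86.0% and 96.2% of them. In EC-Foxc-DKO replicate 2, *Gcg* had 182 UMIs in 4 cells, and 1 cell held 63.2% of them. The log2 fold change of *Gcg* was 5.02 without control replicate 1, where the control group was 1 *Gcg* UMI in 5 cells. It was 2.69 without EC-Foxc-DKO replicate 1, and it stayed above 0 with each of the 4 mice left out in turn.

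*Chga* had a log2 fold change of −1.04 (SE 0.63; unadjusted p = 0.128, adjusted p = 1.00) and *Chgb* one of −0.62 (SE 0.64; unadjusted p = 0.355, adjusted p = 1.00) in edgeR. The mean level of *Chga* was 13614 ± 6644 CPM (SD, n = 2) in control EECs and 6236 ± 2666 CPM (SD, n = 2) in EC-Foxc-DKO EECs. A single EEC held most of the *Chga* UMIs of control replicate 2. Both chromogranins were below 0 here and in all 13 alternative settings, and neither passed in any of them. The values ran from −1.59 to −0.54 for *Chga* and from −1.07 to −0.38 for *Chgb*. These settings are not separate checks. Keeping the members in the clustering and a resolution of 1.0 gave the same fit as the main one. DESeq2 and its size factors used the same sums.

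The other members had log2 fold changes close to 0 or smaller than their errors. They were 0.72 (SE 0.76) for *Gip*, 0.29 (SE 0.96) for *Pyy*, 0.23 (SE 0.46) for *Tph1*, 0.04 (SE 0.69) for *Sct*, 0.02 (SE 0.77) for *Cck* and −0.10 (SE 1.77) for *Nts*. The *Nts* value rested on control replicate 1, without which it was 11.38 (adjusted p = 2.8e-07) because the control group was then the 5 cells with 1 *Nts* UMI. *Sst* did not pass the filter on low counts. Of the 10 members, 4 had groups that did not overlap, *Gcg* and *Tph1* higher and *Chga* and *Chgb* lower in EC-Foxc-DKO EECs, beside 27.1% of all genes tested (13.1% higher and 14% lower). A count of 4 of 10 over so few genes is close to that background.

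**Figure D2:**
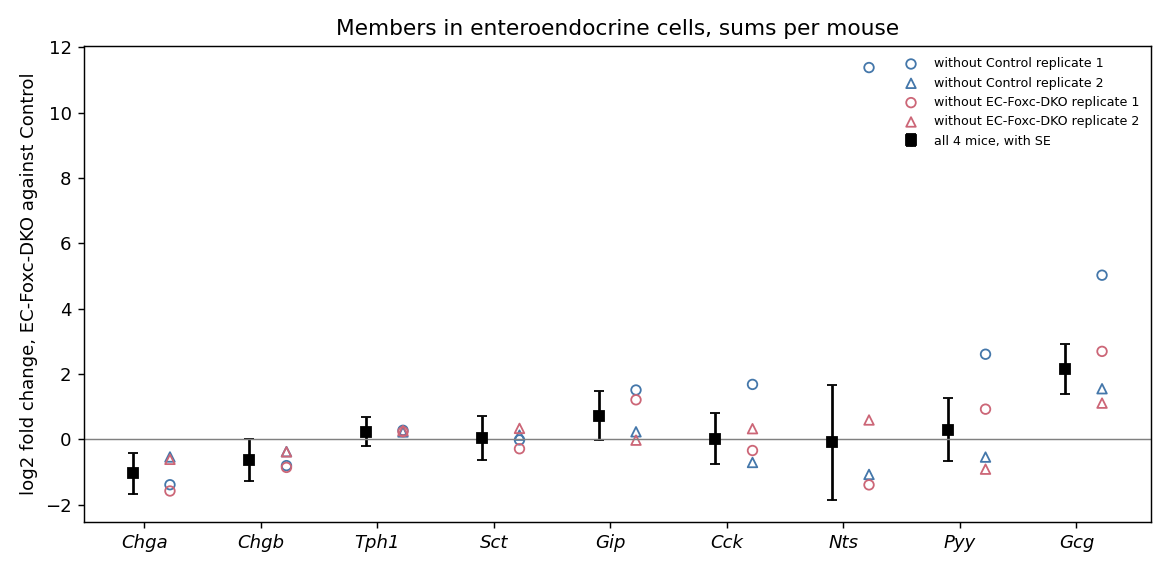
Log2 fold change of the 9 members tested in EECs, EC-Foxc-DKO against control; black squares with SE bars are the fit of all 4 mice and open symbols are fits with 1 mouse left out. *Chga* and *Chgb* lie below 0 and *Tph1* and *Gcg* above 0 in each of these fits, while *Nts* ranges from −1.40 to 11.38 depending on the mouse left out.

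The other genes of the EEC programme were read from lists by role, and of the 60 list genes tested 0 passed the test in either direction. With the replicate number as a block, 2 passed, *Guca2b* (adjusted p = 0.0025) and *Slc5a1* (adjusted p = 0.015), both higher in EC-Foxc-DKO mice (edgeR). Of the 25 genes for granules and prohormone processing, 22 could be tested, and their median log2 fold change was −0.25 with 4 of 22 above 0. Over all genes tested the median was −0.0036, with 2146 of 4322 above 0. The genes of a list were measured in the same cells and are not independent. *Cpe*, a carboxypeptidase that trims prohormones, was at 1443 and 1568 CPM in control EECs and at 1418 and 1066 CPM in EC-Foxc-DKO EECs (log2 fold change −0.23, SE 0.46). *Scg2*, a granin of the same granules, had a log2 fold change of −0.80 (SE 0.54), and *Pcsk1n*, which encodes an inhibitor of a prohormone convertase, one of −0.79 (SE 0.50).

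Of the 25 transcription factors, 20 were tested, with a median of −0.13 and 8 above 0. *Neurod1*, a factor of EEC differentiation, was at 1287 and 860 CPM in controls and at 1336 and 1172 CPM in EC-Foxc-DKO mice (log2 fold change 0.24, SE 0.47), and *Sox4* (0.56, SE 0.44) and *Isl1* (−0.94, SE 0.66) did not pass the test either. Of the 23 sensors of nutrients and microbial products, 9 were tested, with a median of −0.03 and 3 above 0. *Ffar2*, a receptor of short-chain fatty acids, ran from 277 to 342 CPM over the 4 mice (−0.02, SE 0.43). *Slc5a1*, the sodium-glucose cotransporter, had 73.7 and 69.4 CPM in controls and 316 and 228 CPM in EC-Foxc-DKO mice (1.92, SE 0.48, adjusted p = 1.00 in edgeR), and *Slc15a1*, a peptide transporter, had −0.11 (SE 0.49).

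Of the 19 other gut peptides 5 were tested, with a median of 0.39 and 3 above 0. *Ghrl*, the gene of ghrelin, ranged from 402 CPM in EC-Foxc-DKO replicate 1 to 11597 CPM in control replicate 2 (log2 fold change −1.37, SE 0.95). *Tac1*, the precursor of substance P, which enterochromaffin cells also make, had −0.63 (SE 0.70), and *Guca2b*, the gene of uroguanylin, had 2.63 (SE 0.83, adjusted p = 1.00 in edgeR). Of the 25 receptors of the gut hormones 4 were tested, with a median of −0.45 and 1 above 0; among them were *Sstr1* (−0.45, SE 0.72), *Glp1r* (−1.09, SE 0.84) and *Sort1* (0.37, SE 0.67). *Guca2b* and *Slc5a1* are also genes of enterocytes, and the 3 genes with the lowest p in EECs, *Mgst1*, *Leap2* and *Reg3b*, named after their values were seen, are enterocyte genes as well; their part in these 2 values was not tested.

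Within the 77 EECs, *Tph1* and the peptide genes other than *Sct* were mostly high in different cells. A median of 9.33% of a cell's UMIs fell on the members, from 0.0417% to 45.5%. *Sct* gave at least 1 UMI in all 77 cells, *Chgb* in 75, *Chga* in 74 and *Tph1* in 47, while *Cck* did so in 27, *Pyy* in 20, *Nts* in 19, *Gip* in 16, *Gcg* in 10 and *Sst* in 3. The highest member of a cell was *Chgb* in 41 cells, *Sct* in 12, *Gip* in 8, *Nts* in 6, *Cck*, *Pyy* and *Chga* in 3 each and *Sst* in 1. As these 10 genes lay outside the clustering but inside the cells it chose, the counts below describe the cluster and carry no test.

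At 1000 CPM or more in a cell, *Tph1* was found in 41 EECs, that is in 15 of 25 and 3 of 5 cells of the control mice and in 15 of 24 and 8 of 23 cells of the EC-Foxc-DKO mice. All 41 also held *Chga* and *Chgb* at that level, and 40 of the 41 held *Sct*. Of the same cells 1 held *Cck*, and 0 held *Gip*, *Nts*, *Pyy* or *Gcg*. In 28 cells at least 1 of *Cck*, *Gip*, *Nts*, *Pyy*, *Gcg* and *Sst* was at that level without *Tph1*, namely in 9, 1, 9 and 9 cells of the mice in the same order. The 8 cells with neither lay mostly in EC-Foxc-DKO replicate 2, which had 6 of them. The 1000 CPM limit was set with the data in view, and 12 cells had *Tph1* between 500 and 2000 CPM.

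Cells high in *Tph1* carried more of the chromogranins. The 40 cells with *Tph1* and none of the 6 peptides at that level are called *Tph1* cells here, and the 28 others peptide cells. *Chga* was at 18515, 33539, 13769 and 13969 CPM in the *Tph1* cells of the 4 mice, and at 1861, 134, 1651 and 592 CPM in their peptide cells. *Chga* was thus higher in the *Tph1* cells in all 4 mice. In these cells both EC-Foxc-DKO mice were below both controls, of which replicate 2 had 3 cells. A single cell held 58.4% of the *Chga* UMIs in the EECs of control replicate 2. How many of all genes differ in this way within *Tph1* cells was not counted. In peptide cells the groups overlapped. *Chgb* was at 54004, 67000, 36289 and 35370 CPM in *Tph1* cells and at 6030, 16750, 7309 and 5076 CPM in peptide cells.

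*Sct* ran the other way, with 9167, 6148, 11062 and 8430 CPM in *Tph1* cells and 73190, 246767, 110529 and 79925 CPM in peptide cells. All 10 members made up 7.74% of the UMIs of *Tph1* cells and 35.1% of those of peptide cells over the 4 mice. The median depth was 6931.5 UMIs in *Tph1* cells and 16505 UMIs in peptide cells. *Tph1* cells were 60.0%, 60.0%, 62.5% and 30.4% of the EECs of the 4 mice, so that EC-Foxc-DKO replicate 2, the mouse with the lowest *Chga* and *Chgb*, also had the smallest part of these cells. The part of this make-up in the *Chga* levels above was not tested.

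Several peptides were found together at 1000 CPM or more. All 16 cells with *Pyy* also held *Cck*, in all 4 mice, and the 4 cells with *Gcg* held both *Pyy* and *Cck*. Of the 12 cells with *Gip*, 10 held *Cck*, 7 *Pyy*, 1 *Nts* and 1 *Chga*. Of the 15 cells with *Nts*, 13 held *Chga*, 9 *Cck* and 8 *Pyy*. *Gip* and *Nts* thus met in 1 cell, and the single *Sst* cell held *Gip*, *Sct* and *Chgb* but not *Chga*. Among the 28 peptide cells and 1 cell that also held *Tph1*, 8 held 1 of the 6 peptides, 5 held 2 and 16 held 3 or more.

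**Figure D3:**
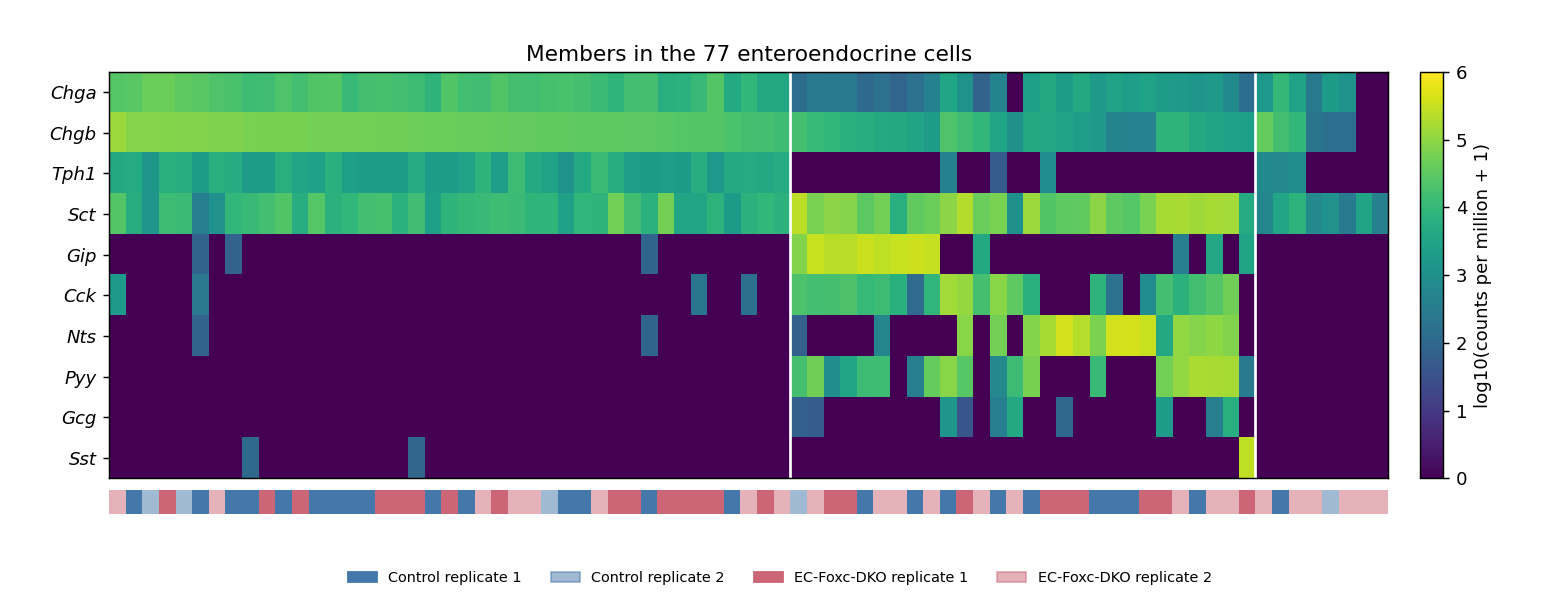
Each column is 1 of the 77 EECs and each row a member, colored by log10(CPM + 1); the strip below gives the mouse of each cell. White lines separate the cells with *Tph1* at 1000 CPM or more (left), a middle group and 8 cells on the right. The middle cells hold *Gip*, *Cck*, *Nts*, *Pyy*, *Gcg* or *Sst* at that level without *Tph1*, and the right ones hold none of these genes at it. *Chga*, *Chgb* and *Tph1* are high on the left, *Sct* in nearly all cells, and *Gip*, *Cck*, *Nts*, *Pyy* and *Gcg* in the middle.

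Most cell types other than EECs held the members at a small part of the EEC level, and *Sct* was the member with the highest level outside them. In tuft and M cells *Sct* averaged 661 CPM over the mice, with at least 1 UMI in 58 of 66 cells. It was at 822 and 969 CPM in the tuft and M cells of controls and at 774 and 80.4 CPM in those of EC-Foxc-DKO mice. Both EC-Foxc-DKO mice were thus below both controls, from 3 to 28 cells a mouse and without a test. The intervals of control replicate 1 (737 to 913) and EC-Foxc-DKO replicate 1 (703 to 849) overlapped. How many of all genes differ in this way in tuft and M cells was not counted. In goblet and Paneth cells *Sct* averaged 411 CPM, with at least 1 UMI in 92 of 123 cells. In goblet and Paneth cells the *Sct* level was 225 and 778 CPM in controls and 451 and 192 CPM in the EC-Foxc-DKO mice, so the groups overlapped. In Follicular B cells, where no *Sct* is due, 0 to 4.07% of cells had a *Sct* UMI at a median depth of 2726 to 3321 UMIs per mouse, against 59.4% to 91.5% of goblet and Paneth cells at 4657 to 20777 UMIs. Drawn down to 1000 UMIs per cell, the expected shares were 14.8% to 48.1% in goblet and Paneth cells and 0 to 0.980% in Follicular B cells.

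The levels of *Nts* and *Chgb* outside EECs rested on few cells where they were highest. *Nts* in lymphatic endothelial cells (63.4 CPM) was 7 UMIs in 1 of 19 cells, and *Chgb* and *Nts* in tuft and M cells came from 5 and 4 of 66 cells. In all, 77 kept cells had 1% or more of their UMIs on the members, of which 72 were EECs and 5 lay in other clusters, 2 among tuft and M cells and 1 each in Middle enterocytes, crypt cells and the cluster led by *Sprr2a3* and *Gml2*. Those 5 cells held 9 to 16 of the 18 EEC markers.

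**Figure D4:**
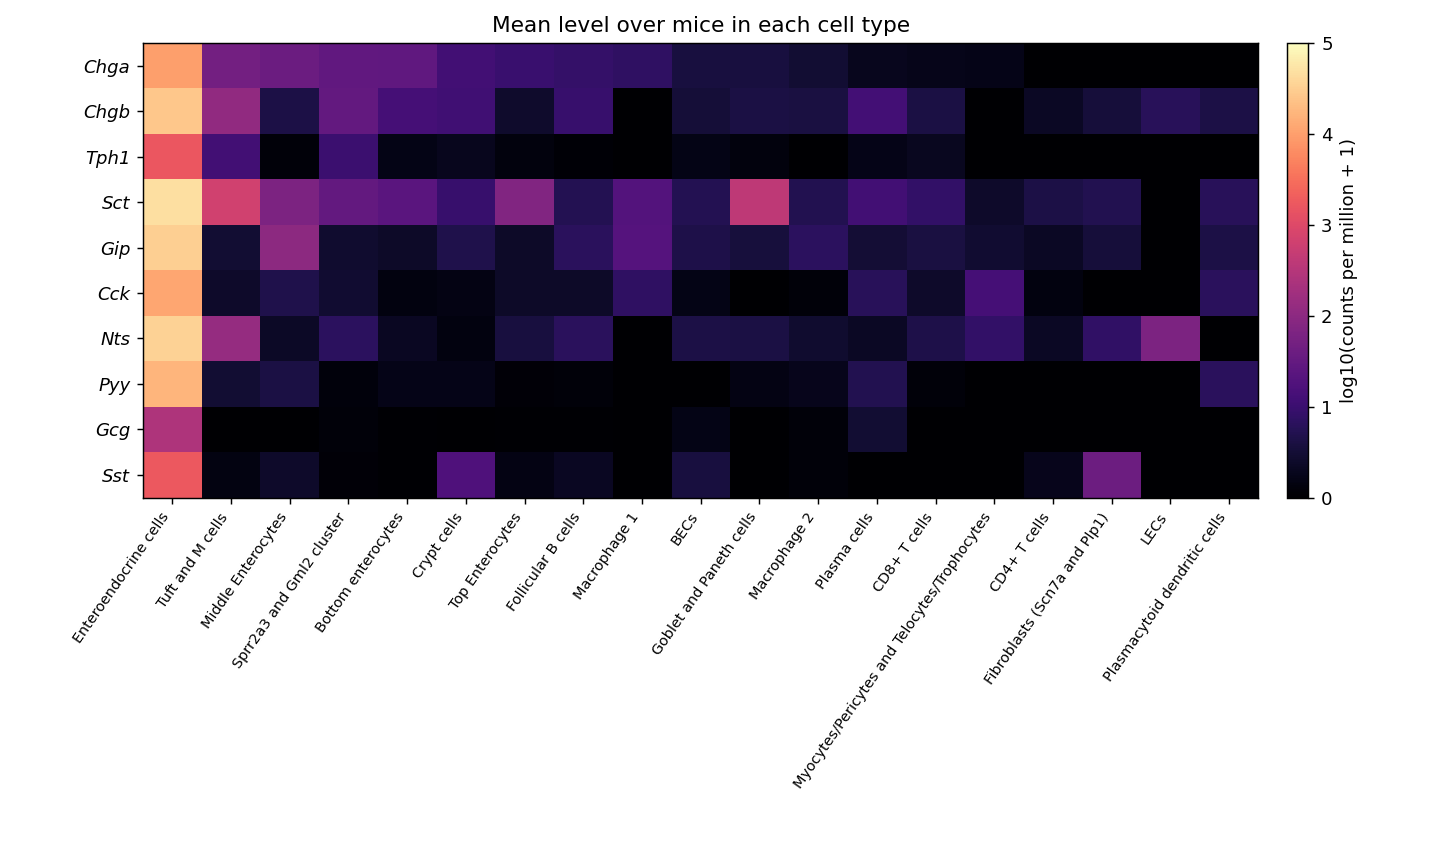
Mean level over mice of each member (rows) in 19 kinds of cell (columns), colored by log10(CPM + 1). The EEC column is the brightest in every row, and *Sct* in tuft and M cells (661) and in goblet and Paneth cells (411) is the highest value elsewhere.

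In the 7 other types with at least 10 cells in every mouse, the test between genotypes reached members only in crypt cells. There *Sct* had a log2 fold change of 1.71 (SE 0.72; unadjusted p = 0.0496, adjusted p = 1.00) and *Chga* one of −0.11 (SE 0.40) in edgeR, and 0 of 9281 genes (0%) were called. *Chga* in crypt cells was at 13.3 and 9.72 CPM in controls and at 11.1 and 11.1 CPM in EC-Foxc-DKO mice, with each EC-Foxc-DKO value between the control values.

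In enterocytes the members were close to 0 next to the EEC levels, and *Chga* was higher in EC-Foxc-DKO mice, which is why it had been picked. The enterocytes were 756 and 47 cells in the control mice and 446 and 353 cells in the EC-Foxc-DKO mice, the pooled Top, Middle and Bottom clusters along the villus. *Chga* was at 11.7 and 7.04 CPM in controls and at 23.8 and 39.1 CPM in EC-Foxc-DKO mice, a mean of 9.39 ± 3.33 against 31.5 ± 10.8 CPM (SD, n = 2 each). The level of *Chga* in EECs was 4351 CPM in the lowest mouse.

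The higher value of EC-Foxc-DKO replicate 1 came from few cells. A single enterocyte with 13 EEC markers held 146 of its 299 *Chga* UMIs and 218 of its 275 *Chgb* UMIs, and another, with 16 markers, held 2242 of its 2278 *Gip* UMIs. Without enterocytes that held 3 or more EEC markers, *Chga* was at 11.6 and 7.04 CPM in controls and at 12.2 and 40.3 CPM in the EC-Foxc-DKO mice. EC-Foxc-DKO replicate 1 then lay next to control replicate 1, and EC-Foxc-DKO replicate 2 alone stood above. With barcodes of up to 20% mitochondrial UMIs, *Chga* was at 11.1 and 5.79 CPM in controls and at 7.61 and 37.0 CPM in EC-Foxc-DKO mice, and the groups overlapped.

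EC-Foxc-DKO replicate 2 differed from the rest in its enterocytes too. Of its 353 enterocytes 345 were Bottom enterocytes, 4 Middle and 4 Top, whereas control replicate 1 had 180, 316 and 260, control replicate 2 had 25, 18 and 4, and EC-Foxc-DKO replicate 1 had 116, 203 and 127. Within Bottom enterocytes *Chga* was at 12.5 and 8.68 CPM in controls and at 48.5 and 38.4 CPM in EC-Foxc-DKO mice, and without cells that held 3 or more EEC markers at 12.5, 8.68, 19.1 and 39.5 CPM. In Middle enterocytes *Chga* was at 14.1 and 4.99 CPM in controls and at 9.45 and 122 CPM in EC-Foxc-DKO mice, the 122 being 10 UMIs in 4 cells. Both EC-Foxc-DKO mice were above both controls in Bottom enterocytes, with and without these cells. *Chga* had been selected on enterocyte counts that include Bottom enterocytes, so this order is a description and carries no test. How many of all genes differ in this way there was not counted. Bottom enterocytes joined a cluster led by *Fabp6* and a cluster led by *S100g*, the latter with 23, 0, 13 and 116 cells. With all cells, *Chga* was at 11.5, 8.68, 50.3 and 33.0 CPM in the former. In the latter it was at 20.9 CPM (12.6 to 32.6) in control replicate 1. The EC-Foxc-DKO mice had 29.4 (15.2 to 51.3) and 52.0 CPM (43.5 to 61.6) there. In Middle enterocytes EC-Foxc-DKO replicate 1 lay below control replicate 1. In Top enterocytes the values were 4.12, 0, 5.86 and 25.3 CPM, the 0 and the 25.3 each from 4 cells.

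A *Chga* UMI was seen in 16.4% and 17.0% of control enterocytes and in 17.5% and 42.8% of EC-Foxc-DKO enterocytes, at median depths of 27540.5, 30788, 26680.5 and 23187 UMIs. In Follicular B cells, which should lack *Chga*, the shares were 3.25%, 5.88%, 0.832% and 0% (0 of 33 cells, exact upper limit 10.6%) at median depths of 3285, 3321, 3250 and 2726 UMIs. Drawn down to 1000 UMIs per cell, the expected shares were 1.00%, 0.520%, 1.21% and 3.79% in enterocytes and 1.31%, 2.07%, 0.229% and 0% in Follicular B cells. The B cell values rest on 5, 1, 10 and 0 UMIs, and the controls' enterocyte shares were below those of their B cells. In other immune cells at the same drawn depth the shares were 0.291%, 0, 0 and 0% in CD8+ T cells and 0.0847%, 0.644%, 0.0670% and 0% in Macrophage 2, so the background itself varied between cell types, and the enterocyte share of control replicate 2 was below that of its Macrophage 2. Since *Chga* was selected on these enterocyte counts, the shares are a description.

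The ratio of the 2 chromogranins gave another view that does not depend on the depth of a cell. *Chga* made up 26.0% and 31.9% of the *Chga* and *Chgb* UMIs of control EECs and 26.3% and 20.2% of those of EC-Foxc-DKO EECs. In enterocytes with fewer than 3 EEC markers it made up 82.8% (exact 95% interval 78.0 to 86.9) and 90.0% (55.5 to 99.7) in the control mice and 86.0% (79.8 to 90.8) and 95.3% (92.4 to 97.3) in the EC-Foxc-DKO mice. The enterocyte interval lay above the EEC value in each of the 4 mice. As *Chga* was selected on its enterocyte counts, this ratio is a description and carries no test. Immune cells, pooled over the mice, had 26.1% (17.5 to 36.3) from 24 *Chga* and 68 *Chgb* UMIs, near the EEC value, with the 4 mice from 5% to 50.0%. A single plasma cell of EC-Foxc-DKO replicate 2 held 15 of these *Chgb* UMIs.

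Crypt cells without those of 1% or more member UMIs had 82.1%, 100%, 88.2% and 85.9%, and *Sprr2a3* and *Gml2* cells with fewer than 3 markers had 90.2%, 93.3% and 97.0% in the 3 mice with UMIs. The share in these 2 kinds of cell was thus higher than in the EECs of the same mouse, and the source of their *Chga* UMIs was not tested. Other epithelial cells varied. Top enterocytes had 16 *Chga* and 16 *Chgb* UMIs in control replicate 1 and 12 and 5 in EC-Foxc-DKO replicate 1. Goblet and Paneth cells had 2 and 3 in control replicate 1, 0 and 4 in EC-Foxc-DKO replicate 1 and 6 and 0 in EC-Foxc-DKO replicate 2. Tuft and M cells had 61 and 187 in control replicate 1 and 26 and 6 in EC-Foxc-DKO replicate 1, from few cells. *Sct* was the highest other member in enterocytes of the control mice and EC-Foxc-DKO replicate 2, at 35.2 and 38.3 CPM in controls and at 67.2 and 35.5 CPM in EC-Foxc-DKO mice. Without enterocytes that held 3 or more EEC markers *Sct* was at 35.8, 38.3, 36.1 and 37.8 CPM, with the control and EC-Foxc-DKO mice interleaved.

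**Figure D5:**
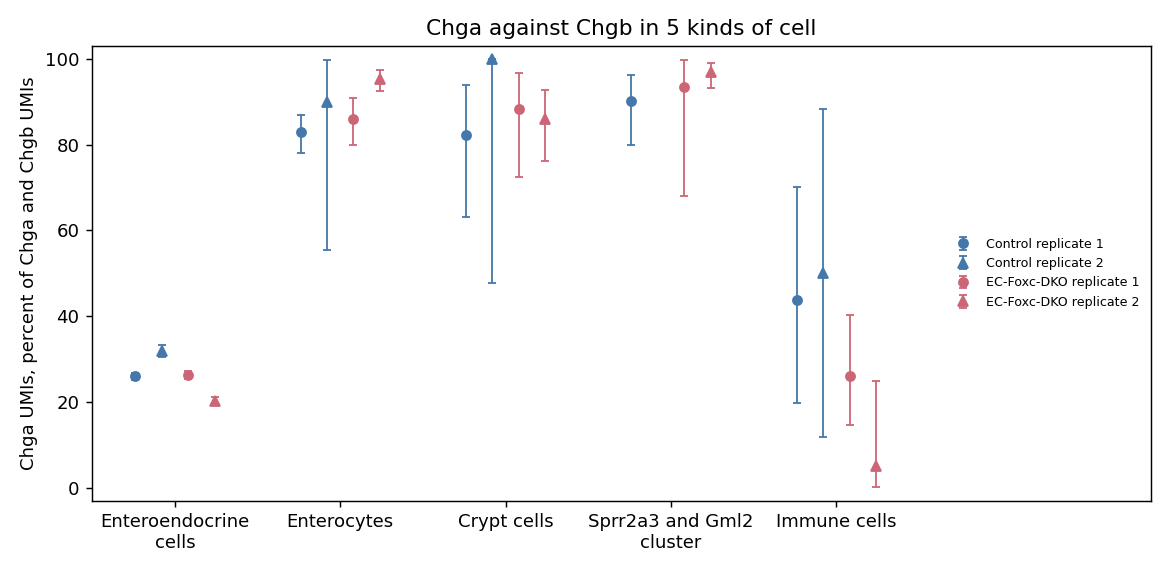
*Chga* UMIs as a percent of *Chga* and *Chgb* UMIs in 5 kinds of cell, 1 symbol per mouse with exact 95% binomial intervals. EECs lie between 20.2 and 31.9%, whereas enterocytes with fewer than 3 EEC markers lie between 82.8 and 95.3%, and crypt and *Sprr2a3* and *Gml2* cells lie near the enterocytes.

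The remaining members were low in enterocytes and were raised in EC-Foxc-DKO replicate 1 by the same few cells. *Chgb* was at 2.36 and 0.782 CPM in controls and at 21.9 and 1.77 CPM in EC-Foxc-DKO mice, and *Gip* at 1.63, 0, 181 and 2.32 CPM. Without enterocytes that held 3 or more EEC markers, *Chgb* was at 2.41, 0.782, 1.99 and 1.99 CPM and *Gip* at 1.65, 0, 2.98 and 2.12 CPM. All 10 members together were at 56.3 and 47.7 CPM in controls and at 312 and 81.2 CPM in EC-Foxc-DKO mice, and at 56.6, 47.7, 59.6 and 84.7 CPM without these cells. *Cck*, *Nts*, *Pyy*, *Tph1*, *Gcg* and *Sst* stayed at or below 7.56 CPM in enterocytes of every mouse.

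Over 59 sums per mouse and cell type, the genes whose level was most like that of *Chga* were *Gm15200* (Pearson r = 0.886 on log2(CPM + 1)), *Neurod1* (0.853), *Pde11a* (0.848), *Slc18a1* (0.838), which encodes the transporter that loads serotonin into granules, and *Chgb* (0.831). These points share libraries, depth and, in the EECs, the cells themselves, so the values describe the pattern and no more.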

How the data were processed

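The authors deposited raw UMI counts in 1 matrix per mouse, and in 1 table that joins the libraries. Per the labels they used 10x Genomics 3′ v3.1 kits, Cell Ranger 4.0.0 and mm10, with Cre added as a feature, whereas the study's methods name another version of Cell Ranger. Barcodes were already those that Cell Ranger called as cells. The counts used here came from the matrices. The columns of the joined table are named by barcode and show no sample, so its counts were not used. Its 18407 genes set which genes could enter the clustering and the mitochondrial share.

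With the settings of the study's methods, barcodes with over 10% of UMIs on 13 mitochondrial genes were removed, as were genes whose mean was under 0.001 counts. Each cell was scaled to 10000 UMIs and put on a log scale, and 2728 variable genes (mean 0.01 to 8, dispersion at least 0.5) without the 10 members were scaled. Leiden clusters came from 15 components, 15 neighbors and a resolution of 0.5 (scanpy 1.11.5, leidenalg 0.10.2, seed 0, no batch correction), 22 in all. A name needed 3 markers at 2 times their level elsewhere and seen in 10% or more of its cells; 19 types were named and 375 cells stayed unnamed. The names were rebuilt here and can differ from the study's for that reason. The study's methods name no removal of doublets and none were removed here; Scrublet's own limit marked 16 cells (0.285%), which is too few for it to have worked, so the 292 cells with the highest scores were left out as an alternative.

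Sums of counts for each mouse and type were tested with edgeR 4.0.16 (filterByExpr, TMM, glmQLFit and glmQLFTest, R 4.3.3), with Benjamini-Hochberg adjustment over all genes tested and a threshold of 0.05; DESeq2 1.42.0 was an alternative. The test was tried on simulated data first. The exact permutation test of 2 mice against 2 cannot go below p = 0.333 and was not used. Each mouse is 1 library, so p-values measure the spread between mice of 1 experiment. CPM are counts per 1000000 UMIs over the genes of that mouse and type. Intervals at 95% are exact Poisson ones for CPM and exact binomial ones for shares, and a count of 0 was read as up to 3 counts. Expected shares after drawing 1000 UMIs leave out shallower cells. Promoters and motifs were read from RefSeq's table for GRCm38.p6, in which all 10 members were matched by 12 entries. The genes named are the members, the 3 highest genes of each list or those called, the 5 genes most like *Chga* and the leading genes of the EEC cluster. The members, lists and tests were chosen with earlier results of these data known.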

Additional observations from a re-analysis of the deposited data

Results flagged for a closer look

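The *Chga* differences between genotypes had opposite signs in EECs and enterocytes. Its mean level in EC-Foxc-DKO minus control mice was −7377 CPM in EECs, where both EC-Foxc-DKO mice were below both controls, and 22.1 CPM in enterocytes, where both were above. *Chga* did not pass the test in EECs (adjusted p = 1.00, edgeR), and the groups overlapped in enterocytes with barcodes of up to 20% mitochondrial UMIs. The difference between the 2 contrasts was not tested, the enterocyte contrast is the one *Chga* had been picked for, and without enterocytes that held 3 or more EEC markers it rested mainly on EC-Foxc-DKO replicate 2.

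Barcodes outside the kept cells also held hormone transcripts. Of the barcodes removed for their mitochondrial share, 0.502% and 0.336% in controls and 0.651% and 1.02% in EC-Foxc-DKO mice had 1% or more of their UMIs on the members, so both EC-Foxc-DKO libraries were above both controls. As a share of all barcodes, kept ones included, the values were 0.785%, 0.414%, 0.762% and 1.22%, and the groups overlapped. These were 26, 11, 30 and 41 barcodes, 108 in all, or 58.4% of the 185 barcodes at that level, and all 108 had over 10% mitochondrial UMIs. *Chgb* was the highest member in 58 of them, *Gip* in 15, *Nts* in 12, *Sct* in 10, *Sst* in 7, *Chga* in 5 and *Cck* in 1. In control replicate 1, only 1.53% of 785 *Sst* UMIs over all barcodes were in kept cells.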

How the results depend on the processing

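The calls of members were few and thin, and each rested on the filter, on 1 mouse or on how EECs were chosen. Of 0 members called in EECs, 2 (*Gcg* and *Sst*) were called with no filter on low counts, 1 (*Sst*) with EECs chosen by markers and 1 to 3 with 1 mouse left out (*Gcg*, *Nts* and *Sst* without control replicate 1, *Gcg* without EC-Foxc-DKO replicate 1, *Sst* without either of the others). Genes called in EECs went from 0 to 21 with no filter, 14 with the replicate number as a block, 3 with EECs chosen by markers and 10 to 42 with 1 mouse left out (most without EC-Foxc-DKO replicate 1); list genes went from 0 to 2 with no filter (*Guca2b* and *Neurog3*), 2 with the block (*Guca2b* and *Slc5a1*) and 1 to 5 with 1 mouse left out. In crypt cells 2 members (*Chgb* and *Sst*) were called with no filter, and 0 to 1 with 1 mouse left out (*Sst* without EC-Foxc-DKO replicate 1). Where 1 mouse was left in a group, its spread was taken from the other group. The replicate numbers say nothing of a shared litter or day, and replicate 1 of both groups deviated together at r = 0.322 over 4322 genes; with 2 pairs the block changed no call of a member. DESeq2, DESeq2's size factors, members kept in the clustering and a resolution of 1.0 also called 0 members. Directions turned for *Cck* (−0.055 with barcodes of up to 20% mitochondrial UMIs, −0.49 with EECs chosen by markers), *Nts* (3.38 with the block, 0.11 without the highest doublet scores), *Pyy* (−1.11 without the highest doublet scores, −0.30 by markers), *Sct* (−0.030 at 20%, −0.37 without the highest doublet scores, −0.47 by markers) and *Tph1* (−0.11 by markers), all log2 fold changes. With 1 mouse left out, *Cck* ran from −0.71 to 1.68, *Gip* from −0.029 to 1.51, *Nts* from −1.40 to 11.38, *Pyy* from −0.92 to 2.60 and *Sct* from −0.29 to 0.33, and *Chga* in crypt cells from −0.22 to 0.18, the latter without control replicate 1. The enterocyte difference of *Chga*, 22.1 CPM, was 13.9 at 20% and 14.4 to 29.7 with 1 mouse left out (lowest without EC-Foxc-DKO replicate 2). That of all members, 144 CPM, was 16.9 at 20%, 19.98 without enterocytes that held 3 or more EEC markers and 29.2 to 260 with 1 mouse left out (without EC-Foxc-DKO replicates 1 and 2). The difference in the share of EEC UMIs on the members, 0.19 percentage points, was −5.45 with EECs chosen by markers and −4.51 to 4.88 with 1 mouse left out, and that in the share of kept cells, −0.079, ran from −0.708 to 0.549. Leaving out cells with barcodes of 2 libraries, or enterocytes with 1% or more member UMIs, was chosen after seeing the data and left the *Chga* difference at 22.1 CPM, the latter with that of all members at 33.2. The cause was not tested. With 5 EECs in control replicate 2, the depth there limits every comparison in EECs.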
